A study of Mus musculus with 4 samples.

Results

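The genes of respiratory complex I were taken as every gene named in the deposited table whose symbol begins with Nduf. There were 45 such genes among 17640 genes of the table, and 71 of its 29210 regions list at least 1 of them. For each gene the region whose middle lies nearest the transcription start was used, which gave 45 different regions, so the count per gene and the count per region are the same. Of the 45 genes, 7 encode core subunits, 29 accessory subunits and 7 the Ndufaf assembly factors. The other 2 are Ndufa4, a subunit of complex IV that carries a complex I name, and its paralog Ndufa4l2, and they were set apart.

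The values are ChIP-seq signals of histone H3 propionylated at lysine 23 in whole hearts from male mice of the C57Bl/6J strain at 12 weeks of age. There were 4 libraries, each from a pool of 3 hearts: BCAA-free diet with transverse aortic constriction (TAC), BCAA-free diet with sham surgery, control diet with TAC, and control diet with sham surgery. BCAA-free means a diet without branched-chain amino acids, TAC is a surgical narrowing of the aorta that loads the left ventricle with pressure, the mice ate their diet from 4 days before the operation, and the hearts were collected 1 week after the operation. Each group had 1 library, so no difference has a replicate check and none was tested. Higher and lower therefore describe libraries, and the pool hides the spread between animals.

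Complex I is the entry point of electrons from NADH into the mitochondrial respiratory chain. Its core subunits carry the flavin, the iron-sulfur clusters and the ubiquinone site, its accessory subunits surround them, and its assembly factors join separately built modules and then leave. The remaining core subunits are encoded by mitochondrial DNA, which has no histones. Heart muscle depends on this chain for most of its ATP. Histone propionylation uses propionyl-CoA, and the breakdown of isoleucine and valine is a source of that donor.

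The signal is an average over the length of a region, in the units of the deposited table, so that regions of different length can be set side by side. Ratios are log2((signal A + 1)/(signal B + 1)), with A named first. In brackets stands a 95% interval from the estimated number of tags in the region, which covers counting error only and leaves out the variation between hearts. The members' regions held 73.1 to 2349 estimated tags per library, and the median over members of the lowest library was 244. All regions together held between 11291348 and 11886699 estimated tags per library. The sources used here do not give the scaling between libraries, and no input library was used here. In whole hearts, fewer cells of a type and less propionylation per cell cannot be told apart.

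Complex I genes lay in regions whose median H3K23 propionylation was above that of all genes, but below that of the other respiratory chain genes of complexes III and IV and ATP synthase. The median signal over the 45 genes was 10.2 in the BCAA-free TAC library, 10.8 in BCAA-free sham, 9.45 in control TAC and 10.2 in control sham. Over all genes of the table it was 8.53, 8.74, 8.76 and 8.46 in the same order of libraries. Over the 12836 genes with a CpG island in their region it was 9.18 in BCAA-free TAC, 9.32 in BCAA-free sham, 9.41 in control TAC and 9.09 in control sham, so that in control TAC complex I was level with them. Over 38 genes of complexes III and IV and ATP synthase it was 11.3 in BCAA-free TAC, 11.8 in BCAA-free sham, 10.9 in control TAC and 11.6 in control sham. Of the 45 genes, 35 had a mean signal higher than that of the median gene. The lowest mean signals belonged to Ndufab1, the mitochondrial acyl carrier protein, Ndufb5 and Ndufv3. The highest belonged to Ndufa7, Ndufa6 and Ndufs1.

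The regions of complex I genes were mostly CpG island promoters shared with a neighbouring gene. The region spanned the start of the gene for 41 of 45 members and listed a promoter for 44. A CpG island lay in the region of 43 members, or 95.6%, against 72.8% of all genes. Another gene was listed in the same region for 39 members, or 86.7%, against 65.0% of all genes, so a member's ratio is also that of its neighbour. The 6 members alone in their region were Ndufa4, Ndufaf4, Ndufaf6, Ndufb4, Ndufb5 and Ndufs4. The shortest region was 1.6 kb long and the median 6.0 kb. The 4 genes whose region did not span the start were Ndufa6, Ndufb5, Ndufs7 and Ndufs8.

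A peak was called in all 4 libraries at 39 members, or 86.7%, against 81.3% of all genes. By library, 43 members had a called peak in BCAA-free TAC, 43 in BCAA-free sham, 43 in control TAC and 39 in control sham. Of all 29210 regions, 22871, 23965, 23009 and 22513 had a called peak in the same order of libraries. Control sham thus had the fewest calls there too. Ndufs7 and Ndufa3 lacked the call in control sham alone. Ndufab1 was called in both BCAA-free libraries and in neither control-diet library, and Ndufaf2 in both TAC libraries and in neither sham library. Ndufs8 had a call in BCAA-free sham alone and Ndufa6 in control TAC alone. All 6 had signal in every library, so a missing call is not a missing signal.

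Short sequence elements near the starts were read from RefSeq promoters of GRCm38.p6, which run from 250 bases before to 50 after the start and matched 39 of the 45 genes. The element AAGATGGC, the core recognised by the factor YY1, was searched on both strands and found in 7 of 39 member promoters, or 17.9%. Of the 12013 promoters of the table's genes, 4.07% held it. Of the 8994 whose gene has a CpG island in its region, 4.65% held it. All 7 matches lay on the gene's own strand, between 23 and 39 bases after the start. They are shown because their place and strand are shared by genes of different regions. The element holds the letters ATG, and whether these are the start codons of the genes was not examined. Each line below gives 30 bases of the gene's strand with the match in capitals.
Ndufa3 (chr7:3617384-3617413, plus strand): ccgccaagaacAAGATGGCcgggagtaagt
Ndufc1 (chr3:51408915-51408944, minus strand): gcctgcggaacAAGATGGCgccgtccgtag
Ndufs7 (chr10:80249462-80249491, plus strand): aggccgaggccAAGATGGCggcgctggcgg
Ndufa9 (chr6:126849097-126849126, minus strand): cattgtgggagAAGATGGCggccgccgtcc
Ndufs6 (chr13:73328433-73328462, minus strand): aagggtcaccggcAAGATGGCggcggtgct
Ndufs4 (chr13:114388045-114388074, minus strand): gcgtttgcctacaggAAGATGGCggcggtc
Ndufb8 (chr19:44555393-44555422, minus strand): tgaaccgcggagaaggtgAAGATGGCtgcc

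The element GCGCATGC is the core recognised by nuclear respiratory factor 1 (NRF1), a regulator of many respiratory chain genes. It was found on either strand in 5 of 39 member promoters, or 12.8%, against 4.75% of the 12013 and 5.64% of the 8994. Its palindromic extension can match on both strands at 1 place, and such a place is shown once with the whole stretch in capitals. Ndufaf4 had matches at 2 places, of which 1 is palindromic.
Ndufaf4 (chr4:24897959-24897988, plus strand): cccagatgtctGCGCATGCGCctgtgcgga
Ndufaf4 (chr4:24898073-24898102, plus strand): gcccctggtgtGCGCATGCtccgtgcgtac
Ndufa6 (chr15:82354356-82354385, minus strand): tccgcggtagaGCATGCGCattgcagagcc
Ndufa11 (chr17:56717691-56717720, plus strand): acctgcactgcGCGCATGCGCgcacgcctt
Ndufa8 (chr2:36049328-36049357, minus strand): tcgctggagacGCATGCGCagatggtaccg
Ndufaf5 (chr2:140170651-140170680, plus strand): tagtcccgttgGCGCATGCGCctaatagaa

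Other elements were searched on both strands in the same windows. The core of ETS factors, CCGGAAG, was in 5 of 39, or 12.8%, against 15.7%. The core of the estrogen-related receptors, AAGGTCA, was in 3 of 39, or 7.69%, against 3.36%. The element TGACGTCA, bound by CREB, was in 3 of 39, or 7.69%, against 2.94%. The SP1 core GGGCGG was in 20 of 39, or 51.3%, against 59.1%. Among the 8994 promoters of genes with a CpG island, the shares were 18.7% for ETS and 2.88% for the estrogen-related receptors. They were 3.29% for the CREB element and 67.6% for SP1. A match is a description of letters, and binding was not measured here. The promoters shown for Ndufs7 and Ndufa6 lie outside the regions used for these genes, so the signals below do not come from them.

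The core subunits that bind NADH and pass on its electrons had nearly level signals across the libraries. The region of Ndufv1 (chr19:3993800-4015999), which encodes the subunit that holds the flavin and the NADH site, had a signal of 8.86 in BCAA-free TAC, 9.98 in BCAA-free sham, 9.11 in control TAC and 9.79 in control sham. The TAC library was lower than the sham library on each diet, by little more than the counting error on the BCAA-free diet. Its TAC-over-sham log2 ratio was -0.16 (-0.27 to -0.04) on the BCAA-free diet and -0.09 (-0.21 to 0.02) on the control diet. Ndufv2 (chr17:66091200-66104199), an iron-sulfur subunit beside it, had 9.38 in BCAA-free TAC, 9.03 in BCAA-free sham, 9.45 in control TAC and 9.38 in control sham. Ndufs1 (chr1:63174400-63178999), the largest core subunit and a carrier of iron-sulfur clusters, had 16.9 in BCAA-free TAC, 16.4 in BCAA-free sham, 15.7 in control TAC and 16.6 in control sham. For Ndufv2 and Ndufs1 the intervals of all 4 ratios held 0.

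Nearer the ubiquinone site, the core subunits Ndufs3 and Ndufs8 differed more, while Ndufs7 was about as level as Ndufv1. Ndufs3 (chr2:90901600-90907599) had 11.3 in BCAA-free TAC, 11.1 in BCAA-free sham, 9.21 in control TAC and 11.4 in control sham. Control TAC stood below the other 3, with a TAC-over-sham ratio of 0.02 (-0.19 to 0.23) on the BCAA-free diet and -0.28 (-0.50 to -0.06) on the control diet. The other region of Ndufs3, 10678 bases upstream, went the other way on the control diet, at 0.19.

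Ndufs7 and Ndufs8, both iron-sulfur subunits next to the ubiquinone site, have regions away from their starts. Ndufs7 (chr10:80256400-80276399, 16947 bases downstream) had 11.0 in BCAA-free TAC, 11.7 in BCAA-free sham, 10.9 in control TAC and 12.1 in control sham, so both TAC libraries were the lower of their pair. Ndufs8 (chr19:3901600-3910799, 6518 bases downstream) had 15.2 in BCAA-free TAC, 12.1 in BCAA-free sham, 17.5 in control TAC and 13.0 in control sham. Both TAC libraries were above both sham libraries, with ratios of 0.31 (0.16 to 0.47) on the BCAA-free diet and 0.40 (0.25 to 0.56) on the control diet. Its second region, 16582 bases upstream, had ratios of 0.23 and 0.48 in that order of diets. The first region also lists Tcirg1, Chka and Aldh3b1, and the upstream one Unc93b1 and Aldh3b1.

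**Figure D1:**
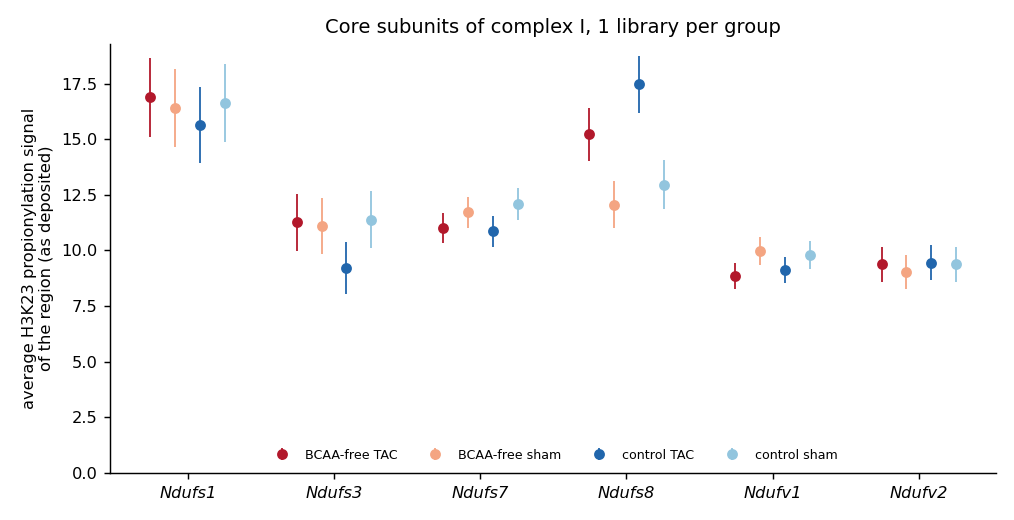
Average H3K23 propionylation signal, in the units of the deposited table, of the region of 6 nuclear-encoded core subunits in the 4 libraries; bars are 95% counting intervals. Ndufs8 was higher in the TAC library on each diet, while Ndufs3 was lowest in control TAC, at 9.21.

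On the control diet, the regions nearest the starts of complex I genes had slightly less H3K23 propionylation after TAC than after sham surgery, while genes as a whole had slightly more. The median log2 ratio was -0.09 over the 45 members and 0.05 over all genes, and 37 of the 45 members lay below the all-gene median. The member median stayed below 0 under both other scalings of the libraries. By class it was -0.08 for core subunits, -0.13 for accessory subunits and 0.03 for Ndufaf factors. The shift was small for any single gene: 1 member, Ndufb5, passed 1.5-fold (0.58 on the log2 scale), where 4.93% of all genes passed it in either direction. Past a log2 ratio of 0.32 in size, 3 members were higher, against 11.5% of all genes, and 3 were lower, against 7.6% of all genes.

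The 3 members higher past 0.32 on the control diet were Ndufa3, Ndufs8 and Ndufaf5. Ndufa3 (chr7:3616600-3618199), a small membrane-arm subunit, had signals of 13.5 in BCAA-free TAC, 14.0 in BCAA-free sham, 14.5 in control TAC and 10.2 in control sham. Control sham was the low library, and the TAC ratio was -0.05 (-0.43 to 0.32) on the BCAA-free diet and 0.46 (0.06 to 0.86) on the control diet. This is the shortest of the members' regions, with 73.1 estimated tags in the lowest library, and its interval is wide. Ndufaf5 (chr2:140169600-140172399), which hydroxylates an arginine of the Ndufs7 product in human cells, had 10.8 in BCAA-free TAC, 11.3 in BCAA-free sham, 12.0 in control TAC and 9.14 in control sham. It too was lowest in control sham, with a TAC ratio of -0.06 (-0.37 to 0.25) on the BCAA-free diet and 0.35 (0.03 to 0.67) on the control diet.

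The 3 lower members were Ndufb5, Ndufc1 and Ndufb10, all accessory subunits of the membrane arm. Ndufb5 (chr3:32750800-32756799) had 5.03 in BCAA-free TAC, 6.40 in BCAA-free sham, 4.32 in control TAC and 7.60 in control sham. Both TAC libraries were below both sham libraries, with ratios of -0.30 (-0.57 to -0.02) on the BCAA-free diet and -0.69 (-0.97 to -0.42) on the control diet. Its region lies 16736 bases downstream of the start and lists neither a promoter nor a CpG island, so it does not show the state of the Ndufb5 promoter. Ndufc1 (chr3:51406000-51410199) had 8.91 in BCAA-free TAC, 11.5 in BCAA-free sham, 8.13 in control TAC and 10.8 in control sham, again with both TAC libraries below both sham libraries. Its ratio was -0.33 (-0.60 to -0.07) on the BCAA-free diet and -0.37 (-0.64 to -0.10) on the control diet. The other region of Ndufc1, 7144 bases upstream, went the other way. That region had 0.07 (-0.11 to 0.24) on the BCAA-free diet and 0.25 (0.07 to 0.42) on the control diet. Ndufb10 (chr17:24716600-24740399) had 11.4 in BCAA-free TAC, 12.7 in BCAA-free sham, 11.2 in control TAC and 14.5 in control sham. Control sham was its highest library, and the TAC ratio was -0.35 (-0.45 to -0.25) on the control diet. By peak height that ratio of Ndufb10 was -0.05. The Ndufb10 region is 23.8 kb long and lists 9 genes, so its ratio is not that of Ndufb10 alone. The others are Tbl3, Rnf151, Snhg9, Snora78, Rps2, Snora64, Rpl3l and Msrb1.

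Ndufa3 and Ndufc1 had the highest and the lowest TAC ratio on the control diet among the 41 members whose region spans the start. Both have the YY1 core 23 bases after the start, as shown above. Over the 7 members with that core, the TAC ratio on the control diet was below 0 in 6, with a median of -0.15, and it was below 0 in 33 of all 45 members. Ndufs7 is among the 6, and its region lies away from the promoter that holds the core. The 200 bases before the starts of Ndufa3 and Ndufc1 are shown because these promoters are the ends of the range. SP1 and ETS cores are in capitals. There is 1 SP1 core in Ndufa3 and no capital letter in Ndufc1.
Ndufa3 (chr7:3617173-3617372, plus strand): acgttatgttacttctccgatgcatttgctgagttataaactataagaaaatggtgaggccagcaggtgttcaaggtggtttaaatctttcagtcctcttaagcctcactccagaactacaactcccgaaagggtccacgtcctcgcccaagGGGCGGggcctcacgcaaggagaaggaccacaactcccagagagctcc
Ndufc1 (chr3:51408956-51409155, minus strand): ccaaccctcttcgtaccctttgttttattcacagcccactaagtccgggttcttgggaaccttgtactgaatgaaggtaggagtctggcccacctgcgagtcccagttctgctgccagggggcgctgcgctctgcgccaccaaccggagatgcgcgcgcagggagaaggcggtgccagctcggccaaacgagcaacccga

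On the BCAA-free diet the TAC and sham libraries lay closer to each other at complex I genes. The median ratio was -0.06 over the 45 members and -0.03 over all genes, and 27 of 45 members lay below the all-gene median. The member median turned to 0.0045 when the libraries were quantile normalised, so its direction depends on the scaling. By class it was 0.02 for core subunits, -0.11 for accessory subunits and -0.01 for Ndufaf factors. No member passed 1.5-fold in either direction, where 1.53% of all genes did. Past 0.32 in size, 1 member was higher, against 5.28% of all genes, and 1 was lower, against 5.88%.

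The higher one was Ndufaf2 (chr13:108156800-108160199), an assembly factor that is a paralog of the subunit Ndufa12. It had 8.07 in BCAA-free TAC, 6.14 in BCAA-free sham, 7.49 in control TAC and 6.84 in control sham, so both TAC libraries were above both sham libraries. Its ratio was 0.35 (0.01 to 0.68) on the BCAA-free diet and 0.12 (-0.22 to 0.45) on the control diet. The lower one was Ndufc1, with the values above. Ndufa8 (chr2:36030400-36051199), an accessory subunit that faces the intermembrane space, was the third lowest after Ndufb5. It had 8.37 in BCAA-free TAC, 10.4 in BCAA-free sham, 9.15 in control TAC and 11.2 in control sham, and its ratio was -0.28 (-0.41 to -0.16) on the BCAA-free diet and -0.27 (-0.39 to -0.15) on the control diet. Both TAC libraries were again below both sham libraries, but by peak height the BCAA-free ratio of Ndufa8 was 0.06.

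**Figure D2:**
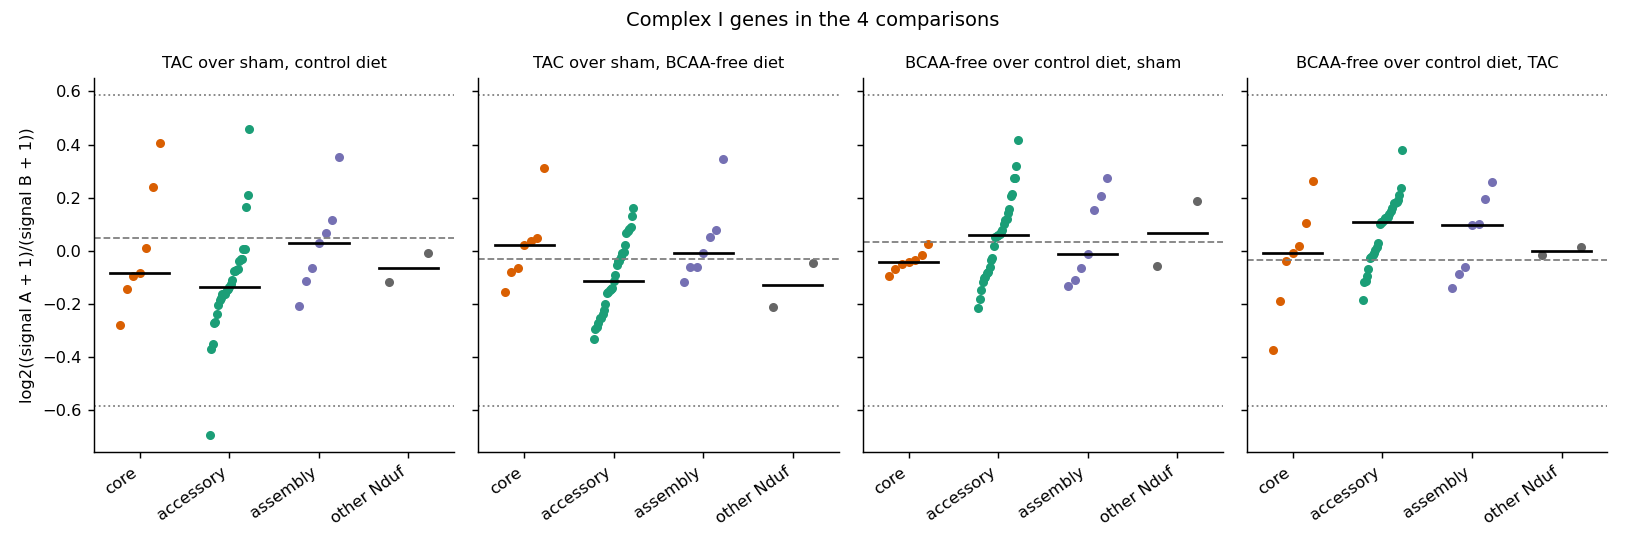
Log2 ratios of the 45 genes (points) by class in the 4 comparisons, with class medians (black bars), the all-gene median (dashed) and 1.5-fold (dotted at 0.58 and -0.58). Accessory subunits lie mostly below the dashed line for TAC over sham on the control diet, with a median of -0.13, and mostly above it for BCAA-free over control diet in TAC hearts, with a median of 0.11; Ndufb5 is the single point past 1.5-fold.

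The TAC ratios on the BCAA-free and the control diet share no library and can be set against each other. Across the 45 members, Pearson's r was 0.49 and Spearman's rho 0.40, against a Pearson's r of 0.51 across all genes; genes are not independent replicates, and these values are descriptions. The BCAA-free ratio minus the control-diet ratio had a median of 0.05 over members and -0.07 over all genes. Of the 45 members, 32 lay above the all-gene median of this difference. Its ends were Ndufb5, at 0.40 (0.01 to 0.79), and Ndufa3, at -0.51 (-1.06 to 0.03). For Ndufb10 it was 0.21 (0.07 to 0.36).

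**Figure D3:**
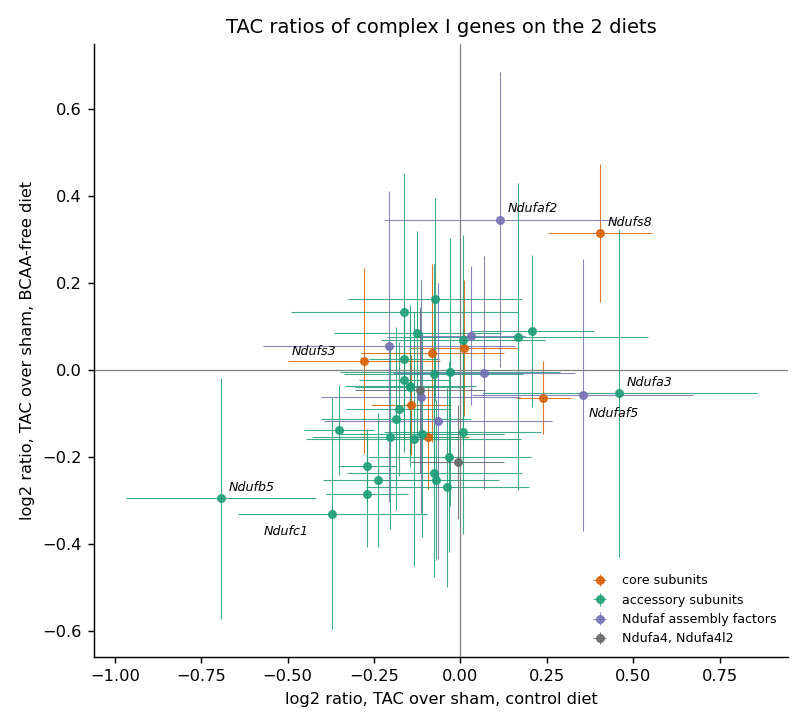
Log2 TAC-over-sham ratio of each of the 45 genes on the BCAA-free diet (y axis) and on the control diet (x axis), with 95% counting intervals, coloured by class. Ndufs8 is high on both axes, at 0.31 on the BCAA-free and 0.40 on the control diet, Ndufb5 and Ndufc1 are low on both, and Ndufa3 and Ndufaf5 are high on the control diet alone.

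In sham hearts the BCAA-free and control-diet libraries lay close to each other at complex I genes by average signal. The median ratio of BCAA-free over control diet was 0.02 over members and 0.04 over all genes, and 24 of 45 members lay below the all-gene median. With the libraries scaled to the same median, and with quantile normalisation, the member median was -0.02. By peak height it was 0.11, against 0.07 over all genes. No member passed 1.5-fold, where 1.51% of all genes did in either direction. Past 0.32 in size, 1 member was higher, against 7.55% of all genes, and 0 were lower, against 3.64%. No test was possible with 1 library per group, so these counts of 0 rest on size alone.

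The higher one was Ndufa3, at 0.42 (0.02 to 0.82), through its low control sham library. Next came Ndufa2 (chr18:36743000-36749399), an accessory subunit of the NADH-binding module with a thioredoxin-like fold. It had 8.84 in BCAA-free TAC, 10.3 in BCAA-free sham, 7.86 in control TAC and 8.05 in control sham, and its diet ratio in sham hearts was 0.32 (0.10 to 0.54). BCAA-free sham was the highest of its libraries. Ndufa1 (chrX:37190400-37192999), an X-linked accessory subunit, followed with 9.23 in BCAA-free TAC, 8.71 in BCAA-free sham, 8.00 in control TAC and 7.03 in control sham. Both BCAA-free libraries were above both control-diet libraries, with a ratio in sham hearts of 0.27 (-0.10 to 0.65).

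The lowest diet ratios in sham hearts were those of Ndufb5, at -0.22 (-0.47 to 0.04), Ndufb10, at -0.18 (-0.28 to -0.08), and Ndufa13. By peak height the ratio of Ndufb10 was 0.31, so its direction depends on the measure. Ndufa13 (chr8:69893600-69908799), an accessory subunit also known as GRIM-19, had 10.7 in BCAA-free TAC, 10.9 in BCAA-free sham, 10.8 in control TAC and 12.2 in control sham. Control sham stood above the other 3 libraries, which lay close together, and the ratio was -0.15 (-0.28 to -0.01).

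In TAC hearts the regions nearest the starts of complex I genes had slightly more H3K23 propionylation on the BCAA-free diet than on the control diet, while genes as a whole had slightly less. Over all 71 regions of complex I genes the median ratio was 0.0024, with 36 above 0 and 35 below. Over the 45 nearest regions the median ratio was 0.10, against -0.04 over all genes, and 34 of 45 members lay above the all-gene median. It stayed above 0 under both other scalings, and it was 0.02 among the 35 members of above-median signal. By class it was -0.01 for core subunits, 0.11 for accessory subunits and 0.10 for Ndufaf factors. No member passed 1.5-fold, where 0.89% of all genes did in either direction. Past 0.32 in size, 1 member was higher, against 3.66% of all genes, and 1 was lower, against 4.71%. This comparison and TAC over sham on the control diet both use the control TAC library, on opposite sides of the ratio, so a low or high value of that library enters both. Across members, the diet ratios in TAC and in sham hearts, which share no library, had a Pearson's r of 0.19 and a Spearman's rho of 0.23, against a Pearson's r of 0.25 across all genes.

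The higher member was Ndufb11 (chrX:20615800-20620999), an X-linked subunit of the membrane arm. It had 11.2 in BCAA-free TAC, 9.92 in BCAA-free sham, 8.40 in control TAC and 8.89 in control sham. Both BCAA-free libraries were above both control-diet libraries, with a ratio of 0.38 (0.14 to 0.62) in TAC hearts and 0.14 (-0.10 to 0.39) in sham hearts. Ndufs3, at 0.26 (0.04 to 0.48), followed through its low control TAC library. Ndufaf6 (chr4:11072800-11077799), an assembly factor, had 7.62 in BCAA-free TAC, 8.00 in BCAA-free sham, 6.21 in control TAC and 6.81 in control sham, and a ratio of 0.26 (-0.02 to 0.54). Both BCAA-free libraries were above both control-diet libraries by signal, but the peak-height ratio of Ndufaf6 was -0.25. The other region of Ndufaf6, 7795 bases upstream, went the other way, with a ratio of -0.60 in TAC hearts. Of all 71 regions, that 1 alone passed 1.5-fold in this comparison. It had a called peak in control TAC alone, its highest library, which favours a low ratio here.

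Among the low ratios, that of Ndufs8 was -0.19 (-0.33 to -0.04). Ndufv3 (chr17:31515400-31523599), a subunit of the NADH-binding module, had 5.47 in BCAA-free TAC, 6.14 in BCAA-free sham, 6.35 in control TAC and 6.32 in control sham, with a ratio of -0.19 (-0.42 to 0.05). BCAA-free TAC was the lowest of its libraries, and the interval held 0.

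The other 25 members had signals between 5.12 and 19.4. Their log2 ratios ran between -0.27 and 0.13 for TAC over sham on the BCAA-free diet and between -0.27 and 0.21 on the control diet. For BCAA-free over control diet they ran between -0.11 and 0.23 in TAC hearts and between -0.12 and 0.27 in sham hearts. These ranges of the ratios are limited by the choice, since the 3 highest and 3 lowest members of each comparison are not among them.

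Further regions of the same genes did not follow the nearest ones in every case. The 26 further regions belong to genes with more than 1 region, and 21 of the 45 genes had 2 or more. The median TAC ratio on the control diet was 0.05 over these 26 regions, of which 10 were below 0, and -0.09 over the 45 nearest regions, of which 33 were below 0. On the BCAA-free diet it was -0.11 over the further and -0.06 over the nearest regions. For BCAA-free over control diet in TAC hearts it was -0.08 over the further regions, of which 18 of 26 were below 0, and 0.10 over the nearest regions, of which 17 of 45 were below 0. In sham hearts it was 0.04 over the further and 0.02 over the nearest regions. Of the further regions, 22 listed a promoter, and their median TAC ratio on the control diet was 0.09, with 7 below 0. The promoter count does not say whether a promoter belongs to the member or to a neighbouring gene. The regions named next were picked with their values in view. The further region with the lowest TAC ratio on the control diet lies 7374 bases upstream of Ndufa3 and lists Oscar, an immune receptor of osteoclasts and myeloid cells. It had 5.55 in BCAA-free TAC, 8.82 in BCAA-free sham, 6.13 in control TAC and 10.4 in control sham. Both TAC libraries were below both sham libraries, with ratios of -0.58 on the BCAA-free diet and -0.68 on the control diet, while the Ndufa3 start region had -0.05 and 0.46.

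Of the 71 regions, 5 listed no promoter: the Ndufb5 region above and 4 further regions that each list 1 gene. The TAC ratio on the control diet was below 0 in 4 of the 5, with a median of -0.54, against a median of 0 over the 10056 regions of the table that list a gene and no promoter. The region inside Ndufs4, 99095 bases from its start, had 3.12 in BCAA-free TAC, 4.66 in BCAA-free sham, 4.34 in control TAC and 6.75 in control sham. Ndufs4 encodes an accessory subunit whose loss in mice gives a Leigh-like encephalopathy. The TAC ratios of this inner region were -0.46 on the BCAA-free diet and -0.54 on the control diet, while those of the Ndufs4 start region were 0.08 and -0.12. The inner region had a called peak in control sham alone, its highest library, which favours a low TAC ratio on the control diet. It held 44.5 to 96.5 estimated tags per library. The region inside Ndufa10, 30659 bases from its start, had 4.08 in BCAA-free TAC, 4.96 in BCAA-free sham, 3.90 in control TAC and 6.27 in control sham. Its TAC ratios were -0.23 on the BCAA-free diet and -0.57 on the control diet, against -0.04 and -0.14 at the Ndufa10 start region. A region 25593 bases downstream of the Ndufa8 start had TAC ratios of -0.32 on the BCAA-free diet and -0.42 on the control diet. The exception was a region 15484 bases downstream of the Ndufv3 start, with 0.49 on the BCAA-free diet and 0.25 on the control diet.

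**Figure D4:**
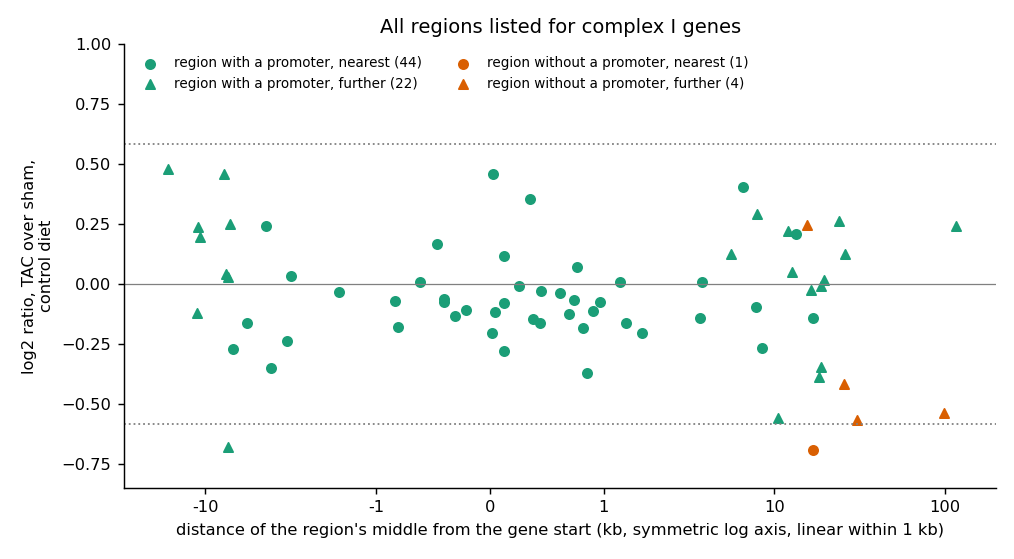
Log2 TAC-over-sham ratio on the control diet of all 71 regions listed for complex I genes against the distance of the region's middle from the gene start (kb; symmetric log axis, linear within 1 kb), with dotted lines at 1.5-fold. Of the 5 regions without a promoter, 4 lie below 0, between -0.42 and -0.69. The 2 regions past 1.5-fold are both lower, and 1 of them lists no promoter. Of the 10056 regions of the table that list a gene and no promoter, 800 were lower and 441 higher past 1.5-fold. Among the 4 without a promoter that lie below 0, the region inside Ndufs4 had a called peak in control sham alone.

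Other genes of oxidative phosphorylation were set beside complex I from lists of gene symbols. For 38 of 41 listed genes of complexes III and IV and ATP synthase, the median TAC ratio was -0.07 on the BCAA-free diet and -0.19 on the control diet. Of the 38, 29 were below 0 on each diet. Of all 17640 genes, 10060 were below 0 on the BCAA-free diet and 7147 on the control diet. Below the all-gene median lay 26 of the 38 on the BCAA-free diet and 32 on the control diet. On the control diet 1 gene of this list passed 1.5-fold: Cox6a2, the heart and skeletal muscle form of a complex IV subunit. It had 6.29 in BCAA-free TAC, 7.30 in BCAA-free sham, 5.48 in control TAC and 9.97 in control sham, with a TAC ratio of -0.76 on the control diet. For the 6 measured of 8 listed complex II genes, the medians were -0.05 on the BCAA-free diet and 0.03 on the control diet. For 10 of 13 complex I assembly factors without an Nduf symbol, they were -0.02 on the BCAA-free diet and 0.00 on the control diet.

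For 12 regulators of these genes, such as the coactivator Ppargc1a, the median TAC ratio was -0.14 on the BCAA-free diet and -0.17 on the control diet. On the control diet 1 of the 12 passed 1.5-fold: Ppara, the fatty acid receptor that drives genes of fatty acid oxidation. It had 11.0 in BCAA-free TAC, 13.8 in BCAA-free sham, 9.80 in control TAC and 17.0 in control sham, with a TAC ratio of -0.74 on the control diet. For BCAA-free over control diet in TAC hearts, the medians were 0.06 for complexes III and IV and ATP synthase, 0.03 for the regulators, 0.04 for the other assembly factors and -0.02 for complex II. In sham hearts they were -0.01, -0.03, -0.03 and 0.05 in that order, and none of these genes passed 1.5-fold in either diet comparison. The difference between complex I and these lists was not tested.

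The markers of every listed cell type had a median TAC ratio farther from 0 than complex I on each diet. The median TAC ratio of 10 cardiomyocyte markers was -0.24 on the BCAA-free diet and -0.57 on the control diet, and that of 9 of 10 leukocyte markers was 0.37 on the BCAA-free diet and 0.50 on the control diet. For the 10 fibroblast markers it was -0.14 on the BCAA-free diet and 0.19 on the control diet. For the 10 endothelial markers it was -0.11 on the BCAA-free diet and -0.20 on the control diet. For BCAA-free over control diet, the median of the fibroblast markers was 0.17 in TAC hearts and 0.49 in sham hearts. That of cardiomyocyte markers was 0.16 in TAC hearts and -0.06 in sham hearts. Leukocyte markers had -0.22 in TAC hearts and -0.06 in sham hearts, and endothelial markers -0.11 and -0.17 in that order. The summed signal of the cardiomyocyte markers was 79.7 in BCAA-free TAC, 97.9 in BCAA-free sham, 70.4 in control TAC and 105.5 in control sham. For leukocyte markers it was 82.4 in BCAA-free TAC, 67.0 in BCAA-free sham, 99.0 in control TAC and 69.1 in control sham. Fibroblast markers summed to 96.1 in BCAA-free TAC, 100.8 in BCAA-free sham, 84.6 in control TAC and 71.2 in control sham. Endothelial markers summed to 108.4 in BCAA-free TAC, 118.1 in BCAA-free sham, 115.0 in control TAC and 131.3 in control sham. All 10 listed cardiomyocyte markers had a region, and no measured marker of any list was at 0 in any library. The part of cell composition in the complex I ratios was not tested.

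**Figure D5:**
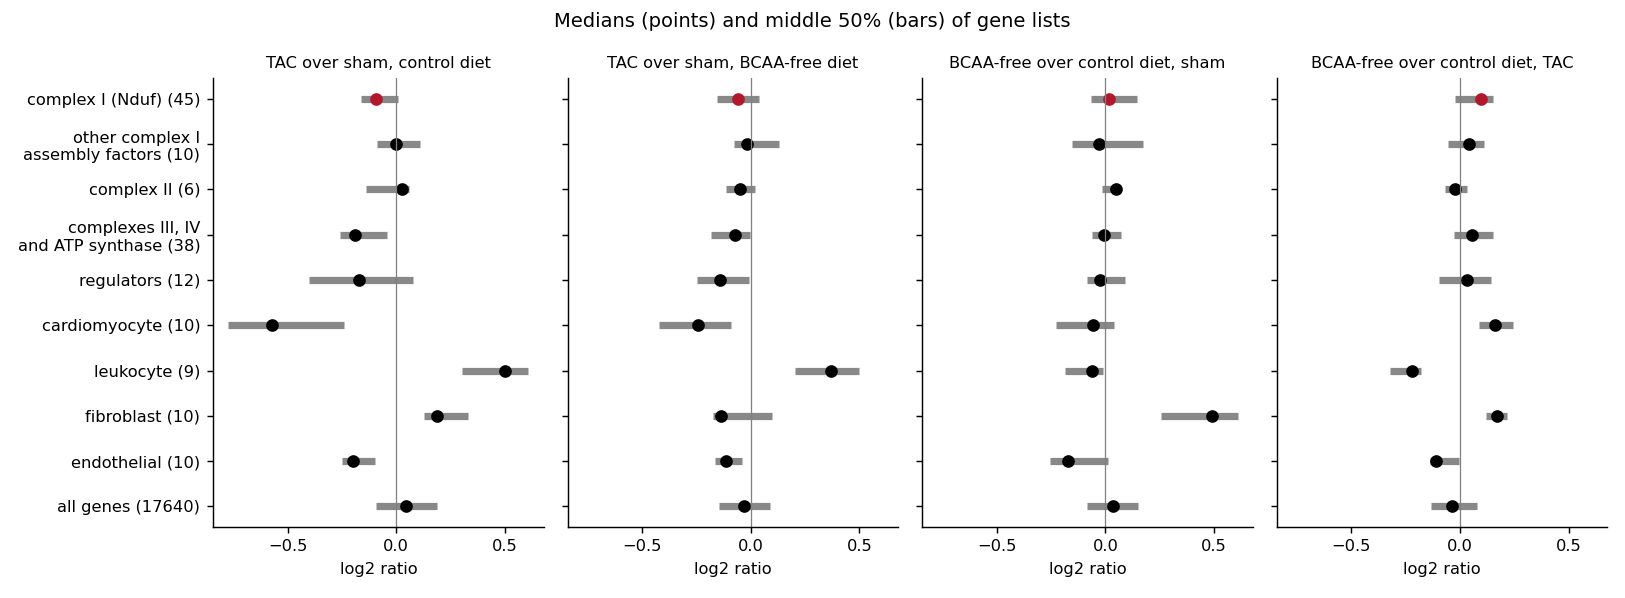
Median log2 ratio (points) and middle 50% of genes (grey bars) of complex I, the other oxidative phosphorylation lists, cell type markers and all genes in the 4 comparisons, with the number of genes in brackets. Complex I, in red, lies at -0.09 for TAC over sham on the control diet, between all genes at 0.05 and the cardiomyocyte markers at -0.57.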

How the data were processed

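H3K23-propionyl ChIP-seq of 4 heart pools was analysed, 1 library per group, grouped by the treatment labels. Per the submitters' processing notes, BWA, MACS2 and mm10 were used; the sources used here give no versions or roles. The authors deposited 1 table of merged peak regions. Per the file headers it gives for each library an average signal, a peak height (also a signal) and a 0 or 1 score for a peak call. The log2 ratios in the authors' deposited table equalled the log2 quotient of the average signals to within 4.44e-16. The deposited larger tag number of the control-diet pair equalled signal times region length divided by 224. This relation gave the estimated tags of all 4 libraries behind the counting intervals. It was not checked on the tag numbers of pairs with a BCAA-free library. No source used here gives the scaling between libraries.

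Each gene took its listed region nearest the start, with no filter on low values. Log2 ratios used a pseudocount of 1, which understates ratios of low regions. With 1 library per group there was no test; 1.5-fold and a log2 ratio of 0.32 are rules of size. Values are given for the core subunits, for members past 1.5-fold, and for the 3 highest and 3 lowest per comparison; 1 gene of this rule is not reported here. The members, the lists and the rules were chosen with earlier results of these data known. The code was checked on simulated libraries and ran in Python 3.11.15 with pandas 2.3.3 and numpy 2.4.6. Alternatives were another pseudocount, 2 other scalings, peak height, another choice of region and 4 subsets of members. Sequences are from RefSeq GRCm38.p6.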

Additional observations from a re-analysis of the deposited data

How the results depend on the processing

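Each group had 1 library, so leaving out a replicate gives no value, and the data limit every ratio to a comparison of pools. No paired analysis was possible because each group has 1 library. For TAC over sham on the control diet the median over complex I genes was -0.16 among the 6 members alone in their region, and it stayed below 0 under every alternative run. On the BCAA-free diet it was -0.0032 with the libraries scaled to the same median, 0.0045 with quantile normalisation and 0 by peak height. For BCAA-free over control diet in sham hearts it was 0.11 by peak height, 0.0647 within 2500 bases of the start and -0.0416 among members alone in their region. In TAC hearts it was 0.0146 with each gene's strongest region, 0.0155 among members of above-median signal and 0.19 among members alone in their region. The difference between the TAC ratios on the BCAA-free and the control diet was 0.12 with libraries scaled to the same median and 0.14 among members alone in their region. The number of members past the fold was 3 by peak height, 0 within 2500 bases of the start, 0 among members of above-median signal and 6 at a fold of 0.32 on the log2 scale for TAC over sham on the control diet. It was 1 by peak height and 2 at a fold of 0.32 on the log2 scale on the BCAA-free diet, 1 at a fold of 0.32 on the log2 scale for the diet in sham hearts, and 1 by peak height and 2 at a fold of 0.32 on the log2 scale for the diet in TAC hearts. The share of all genes past the fold by peak height was not computed, so the peak-height counts cannot be called high or low. Ndufb5, the 1 member past 1.5-fold, leaves the subset within 2500 bases of the start and that of above-median signal by construction; the other causes were not tested. For the 20 genes chosen for single description, 352 of 400 values under alternatives kept their sign. Where the counting interval excluded 0, 4 of 130 turned: Ndufa8 (0.06) and Ndufb10 (0.31) by peak height, and Ndufs3 with the region of highest signal (0.19 for TAC on the control diet, -0.05 for the diet in TAC hearts).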
